A study of Mus musculus with 2 samples.

Results

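The secretory pathway and unfolded protein response set is a list of 42 genes chosen by name, and all 42 were among the 17790 genes of the deposited count table. They comprise 3 plasma cell secretion factors, 11 genes of the translocon and signal peptidase, 11 chaperones and co-factors, 7 genes of disulfide formation, 6 of ER-associated degradation and 4 stress signalling factors. Lung adenocarcinomas of C57BL/6 mice, whose cells all carry the prefix LucOS (not explained in the labels), were dissociated and parted with magnetic CD45 beads into a CD45-negative and a CD45-positive fraction, and each fraction gave 1 droplet library that counts the 3' ends of transcripts. The cells carry 7 classes given by the authors: AT2, AT1, Ciliated, Endothelial, Fibroblast, Erythrocyte and Immune. The design text speaks of microdissected tumours and the extraction protocol of lung, so how much lung around the tumours was taken is not known.

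In the CD45-negative library, 3957 cells held 40873786 UMI (unique molecular identifiers, each a counted transcript), at a median depth of 7710. In the CD45-positive one, 11432 cells held 47477407 UMI, at a median depth of 3376, and 57 cell barcodes occurred in both. The design text gives 6000 cells loaded per channel, fewer than the cells of the CD45-positive library, and whether channels were merged is not known. With 1 library per fraction there was no replicate and no test between groups was made. Levels are CPM (counts per 1000000 UMI of a group, summed over its cells), and all intervals are 95% intervals for counting error only, without the spread between animals. A ratio of 2 or more counted as higher and of 0.5 or less as lower, for genes with at least 50 UMI in both groups together.

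Proteins bound for secretion enter the endoplasmic reticulum (ER) through the Sec61 channel, lose their signal peptide to signal peptidase, and are folded by chaperones and disulfide isomerases before they leave for the Golgi. When folding lags, the sensors IRE1, PERK and ATF6 switch on the unfolded protein response, whose factors XBP1, ATF6 and ATF4 raise the genes of this machinery and of ER-associated degradation. Plasma cells, which export antibody at a high rate, depend on XBP1 to build their ER, and alveolar type 2 (AT2) cells are the surfactant-secreting epithelium of the lung.

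RefSeq promoter windows (GRCm38.p6, 250 bases before to 50 after a gene's start) were found for 33 of the 42 members and 27025 genes in all. The ER stress response element, searched on both strands as CCAAT and CCACG with any 9 bases between them, was in the windows of 9 of the 33 members (27.3%) and of 37 of all genes (0.137%). The element was first defined on promoters of ER chaperone genes, so its presence in them is no independent evidence. The 10 sites, of which Hsp90b1 holds 2, are shown because they mark which members carry the element. Each is written on the strand that reads as the motif, with the fixed letters in capitals.
Hspa5, chr2:34772025-34772043: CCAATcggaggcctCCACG
Hsp90b1, chr10:86705638-86705656: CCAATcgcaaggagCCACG
Hsp90b1, chr10:86705533-86705551: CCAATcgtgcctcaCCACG
Dnajc3, chr14:118937827-118937845: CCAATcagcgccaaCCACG
Calr, chr8:84847075-84847093: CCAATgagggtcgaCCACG
Canx, chr11:50325800-50325818: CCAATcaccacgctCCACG
Creld2, chr15:88819520-88819538: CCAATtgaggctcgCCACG
Pdia6, chr12:17266491-17266509: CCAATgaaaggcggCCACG
Ero1lb, chr13:12565682-12565700: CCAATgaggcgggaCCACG
Derl3, chr10:75893242-75893260: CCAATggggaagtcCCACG

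Of these genes, apart from Derl3, Creld2 had the highest and Canx the lowest ratio between plasma-like and B-like cells described next, so their upstream sequences (250 bases, on the gene's strand) are set side by side, with the fixed letters in capitals. Creld2 carries the motif on the opposite strand, from 126 to 108 bases before its start, and Canx on its own strand, from 145 to 127 bases before it.
Creld2, chr15:88819396-88819645, plus strand: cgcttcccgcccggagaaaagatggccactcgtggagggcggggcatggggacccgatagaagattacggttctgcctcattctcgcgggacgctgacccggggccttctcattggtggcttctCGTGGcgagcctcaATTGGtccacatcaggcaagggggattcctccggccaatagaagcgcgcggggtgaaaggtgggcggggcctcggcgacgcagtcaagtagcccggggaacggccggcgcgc
Canx, chr11:50325674-50325923, minus strand: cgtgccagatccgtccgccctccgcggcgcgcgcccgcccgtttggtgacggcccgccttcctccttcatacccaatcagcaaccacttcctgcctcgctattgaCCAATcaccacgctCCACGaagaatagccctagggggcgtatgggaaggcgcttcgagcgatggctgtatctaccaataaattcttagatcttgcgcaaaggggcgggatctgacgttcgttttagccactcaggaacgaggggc

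A shorter form, ATTGG and CCACG with any base between them, was in the windows of Dnajb11 and Herpud1 and of 0.0444% of all genes. The letters TGACGTGG, known as a core bound by XBP1, were in those of Txndc5 and Txndc11 and of 0.714% of all genes. TGATGNAA, a core bound by ATF4 with its partners, was in those of Txndc5 and Herpud1 and of 4.51% of all genes. These motifs were also searched on both strands, overlaps between motifs were allowed, and a match describes letters, not binding.

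Plasma-like cells were Immune cells of the CD45-positive library with at least 2 UMI of Derl3 and Tnfrsf17 together. B-like cells had at least 5 UMI of Cd79a and Cd79b, the signalling chains of the B cell receptor, and none of Derl3 and Tnfrsf17. The rule took 706 plasma-like cells (9.49% of 7438 Immune cells, interval 8.83 to 10.2) with a median of 4472.5 UMI and 633 B-like cells (8.51%, 7.89 to 9.17) with a median of 3352. Derl3 and Tnfrsf17 chose the cells, so their levels are a description: 593 and 291 CPM in plasma-like and 0 in B-like cells by rule. At least 2 UMI of Ms4a1, the B cell antigen CD20 and no part of the rule, were in 2.41% of plasma-like and 38.1% of B-like cells. At least 2 UMI of the T cell genes Cd3d, Cd3e and Cd3g were in 37.4% and 44.9%. Both names therefore describe the rule and not pure cell types. Of 9 further plasma cell markers 7 were higher in plasma-like cells. Among these were Sdc1, the surface proteoglycan syndecan-1, at a ratio of 7.37 (5.55 to 9.97), and the transcription elongation factor gene Eaf2, at 8.65 (6.58 to 11.6), while Cd38 was lower, at 0.259 (0.190 to 0.350).

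Nearly the whole set was higher in plasma-like than in B-like cells. Of the 40 members that did not choose the cells, 36 were at least 2-fold higher and 0 were lower, where 7.35% of the 6886 genes counted were higher and 7.6% lower. The median ratio of the 40 was 5.25 (2.39 on the log2 scale), against a median of -0.15 on the log2 scale over all genes counted. All 40 intervals lay above 1. With UMI outside mitochondrial and ribosomal protein genes as denominator, 5.49% of genes were higher and 13.4% lower, and 34 members were higher. With UMI outside Jchain as denominator, 9.02% and 5.46% were, and 36 members were higher. With all UMI as denominator, the members under 2-fold were Canx, Derl2, Atf4 and Ddit3. Without mitochondrial and ribosomal protein genes Ssr1 (1.85) and Pdia3 (1.87) were under it as well.

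**Figure D1:**
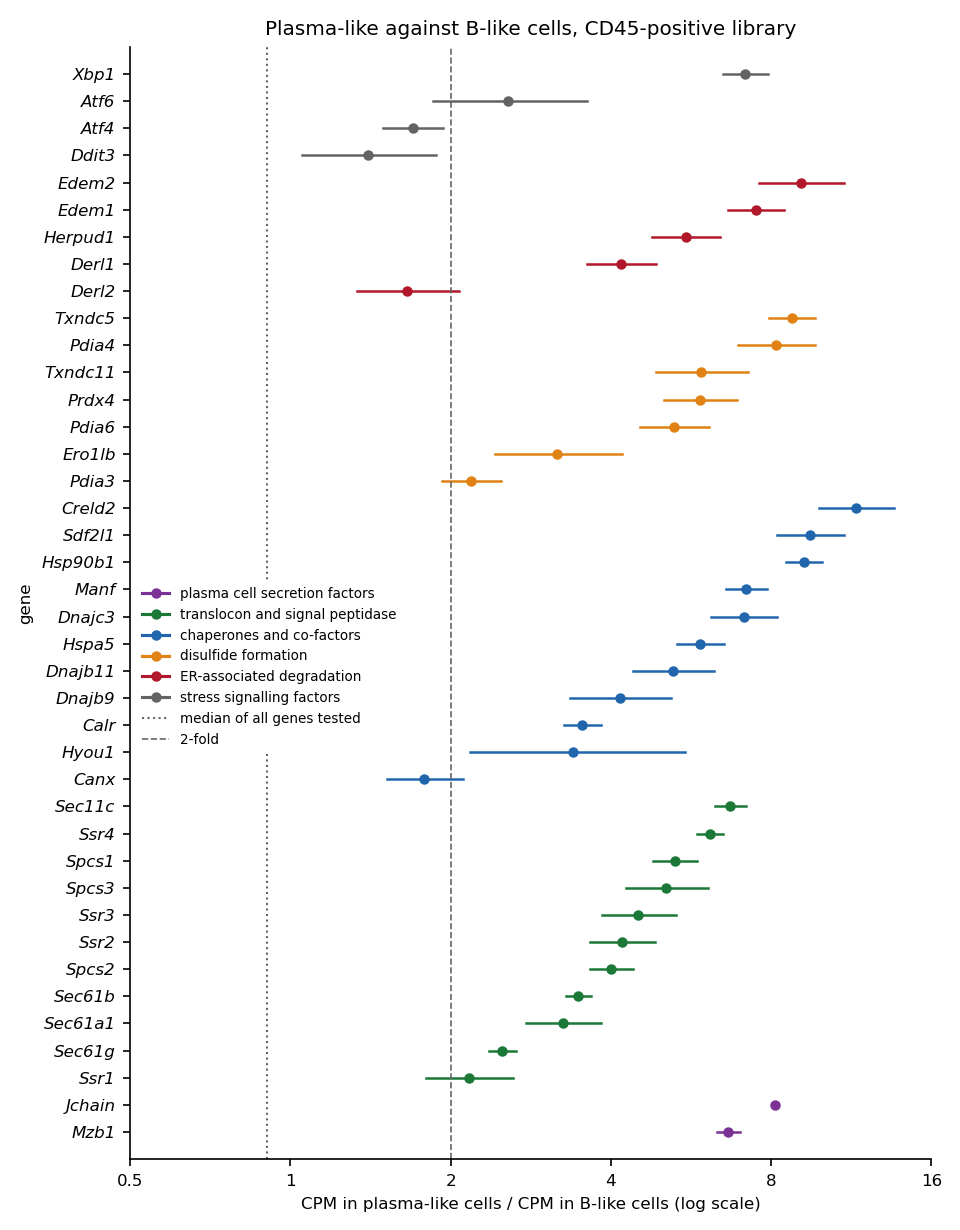
Ratio of CPM in plasma-like to CPM in B-like cells for the 40 genes that did not choose the cells, with 95% counting intervals as lines, coloured by role; the axis is logarithmic. The points run from 1.40 (Ddit3) to 11.5 (Creld2), and 36 lie to the right of the dashed line at 2-fold, while the dotted line marks the median of all genes tested.

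Secretion factors made up a large share of the plasma-like transcripts. Jchain, which encodes the chain that joins IgA and IgM into polymers (chr5:88519809-88527891, minus strand, GRCm38), was at 97861 CPM in plasma-like and 12027 CPM in B-like cells, a ratio of 8.14 (8.04 to 8.24). Jchain alone was thus 9.79% of all UMI counted in plasma-like cells. None of 12 listed immunoglobulin constant genes was among the deposited genes, so their transcripts are missing from this total and from every CPM. How far the shares and ratios of plasma-like cells would change with them was not tested. Mzb1, an ER co-chaperone of antibody assembly, was at 4907 against 739 CPM, 6.64-fold (6.32 to 6.98).

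Entry into the ER was represented by 11 members, and all 11 were higher in plasma-like cells, at a median ratio of 4.20. The channel subunits had ratios of 3.47 (3.29 to 3.67) for Sec61b, 3.25 (2.78 to 3.83) for Sec61a1 and 2.5 (2.36 to 2.66) for Sec61g. The translocon-associated complex, which helps some signal sequences open the channel, spanned a wider range: Ssr4 was at 3595 against 584 CPM (6.15-fold, 5.82 to 6.5) and Ssr1 at 137 against 63.5 CPM (2.16-fold, 1.80 to 2.61). Its subunits work in 1 complex, and the intervals of Ssr4 and Ssr1 did not overlap. In the signal peptidase, the catalytic subunit gene Sec11c was at 2695 against 402 CPM (6.70-fold, 6.27 to 7.17) and the accessory subunits Spcs1, Spcs2 and Spcs3 had ratios between 4.0 and 5.28.

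Chaperones and their co-factors were higher in 10 of 11 cases, at a median of 5.88. Creld2, a secreted disulfide-linked chaperone of the stress response, had the highest ratio among the 40 genes, with 762 CPM in plasma-like and 66.1 CPM in B-like cells (11.5-fold, 9.83 to 13.6). Sdf2l1, a partner of the ER J protein Dnajb11, was at 820 against 86.5 CPM (9.48-fold, 8.23 to 11). Hsp90b1, the ER form of HSP90 also called GRP94, was at 2720.1 against 295 CPM (9.23-fold, 8.55 to 9.98). These 3 stood above the main ER chaperone Hspa5, also called BiP, which was at 1028 against 175 CPM (5.88-fold, 5.31 to 6.53). The lectin chaperones that hold glycoproteins had lower ratios: Calr was at 1118 against 316 CPM (3.54-fold, 3.27 to 3.83), and Canx, its membrane-bound relative, at 155 against 87.0 CPM (1.79-fold, 1.52 to 2.11). Dnajc3, Dnajb11 and Dnajb9, J proteins that steer Hspa5, had ratios of 7.10, 5.23 and 4.16, and Manf, a secreted regulator of Hspa5, 7.18. Hyou1, its nucleotide exchange factor, rested on few counts (114 and 24 UMI) at 3.39-fold (2.17 to 5.51).

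Disulfide formation genes were higher in all 7 cases, at a median ratio of 5.87, yet the isomerases differed among themselves. Txndc5 was at 1572 against 180 CPM (8.74-fold, 7.92 to 9.67) and Pdia4 at 540 against 66.1 CPM (8.17-fold, 6.94 to 9.68). Pdia3, the isomerase that works with Calr and Canx on glycoproteins, was at 303 against 139 CPM (2.19-fold, 1.93 to 2.48). The 3 members named here for the calnexin cycle, Canx, Calr and Pdia3, thus all lay below the median of the 40. As many members lie below a median as above it, and these 3 were not counted as a list of their own. Pdia6 (5.26), Txndc11 (5.91), the peroxiredoxin gene Prdx4 (5.87) and the oxidase gene Ero1lb (3.17) lay between these extremes.

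Among degradation genes, which return misfolded proteins to the cytosol, Edem2 was at 495 against 54.4 CPM (9.10-fold, 7.61 to 11) and Edem1 at 907 against 121 CPM (7.48-fold, 6.63 to 8.47). Both encode mannose-trimming factors that mark glycoproteins for disposal. Herpud1, which helps assemble the ubiquitin ligase HRD1, had a ratio of 5.53 and the channel protein gene Derl1 of 4.18, but its relative Derl2 only 1.66 (1.33 to 2.08), at 81.8 against 49.3 CPM. The intervals of Derl1 and Derl2 did not overlap.

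The signalling factors divided. Xbp1 was at 1368 CPM in plasma-like and 191 CPM in B-like cells (7.16-fold, 6.5 to 7.90), and Atf6 at 51.4 against 20.1 CPM (2.56-fold, 1.85 to 3.60). Counts of 3' ends do not tell the spliced from the unspliced form of Xbp1. Atf4, the factor of the PERK branch, was at 237 against 139 CPM (1.70-fold, 1.49 to 1.94), and its target Ddit3, also called CHOP, at 43.3 against 30.9 CPM (1.40-fold, 1.05 to 1.88). The interval of Xbp1 did not overlap those of the other 3 factors.

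The other genes of the pathway were counted by list. Of 36 further translocation, glycosylation and folding genes counted, 24 were higher in plasma-like cells and 1 was lower, among them the prolyl isomerase genes Fkbp11 (19.0-fold, 13.5 to 27.6) and Fkbp2 (7.16-fold, 6.38 to 8.05), while Cnpy3, a folding factor of Toll-like receptors, was at 0.321 (0.203 to 0.497). Of 15 further degradation genes, 9 were higher and 0 lower, with Sel1l, the partner of HRD1, at 7.03 (5.61 to 8.91). Of 28 ER to Golgi transport genes, 21 were higher and 0 lower, with the cargo receptor gene Lman1 at 7.41 (6.05 to 9.16). Of 13 further stress transducers and targets counted, 4 were higher and 1 lower: Creb3l2 (5.86), Chac1 (5.24), Asns (4.73) and Atf5 (4.65) were higher, the stress factor Atf3 was at 0.600 (0.455 to 0.790) and Crebzf was lower, at 0.482 (0.290 to 0.790). The median of that list, 0.17 on the log2 scale, lay near that of all genes, whereas the transport, degradation and folding lists had medians of 1.32, 1.15 and 1.44.

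Not all cells in these groups were free of other markers. At least 2 UMI of the T cell receptor genes Cd3d, Cd3e and Cd3g were in 37.4% of plasma-like and 44.9% of B-like cells, and at least 2 of the macrophage genes C1qa, Chil3 and Marco in 17.0% and 8.21%. By a stricter rule, every cell with any UMI of these genes or of the neutrophil gene S100a8, or with at least 5 UMI of the AT2 gene Sftpc, was left out. This left 29 plasma-like and 51 B-like cells, 26 of 26 members counted were higher, and the median was 3.65 on the log2 scale. In so few cells, a member scarce in B-like cells reached the minimum of UMI only if it was high in plasma-like cells. The minimum thus favoured higher members, and this count and median do not speak for the members left out. At least 20 Jchain UMI were in 65 of the 633 B-like cells, which held 95.3% of the Jchain of that group. Leaving these 65 out, an alternative added after the data were seen, gave 36 members at 2-fold or more and moved 16 of the 40 ratios upward by over 1.5 times. The ratio of Jchain then was 155, which follows from leaving cells out by Jchain itself. The ratio of another member also rises by that choice wherever the cells left out held more of it, so these ratios are a description. Txndc5 had a ratio of 34.0, Creld2 24.1, Edem2 21.8, Edem1 20.9 and Xbp1 20.7. Sdf2l1 (14.4), Prdx4 (13.4), Sec11c (12.9), Dnajc3 (11.9), Ssr4 (11), Manf (10.8), Txndc11 (10.7), Mzb1 (10.6), Spcs3 (10.6) and Derl1 (6.44) made up the rest of the 16. Canx (1.85), Atf4 (1.89), Derl2 (1.75) and Ddit3 (1.31) stayed under 2, the genes that were under it with these cells kept.

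Ratios of members with and without the promoter element overlapped. The 8 members with the ER stress response element that did not choose the cells had a median ratio of 5.57, from 1.79 (Canx) to 11.5 (Creld2). The 23 with a window but without these letters had a median of 5.28, from 1.40 to 9.48.

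Most members were higher in cells with more Derl3 and Tnfrsf17, the count that set the plasma-like group. CD45-positive Immune cells with 0, 1, 2, 3 and 4 or more such UMI numbered 6342, 390, 195, 161 and 350. Just outside the limit, at 1 UMI, Hspa5 was at 569 CPM, and just inside, at 2 UMI, at 722 CPM. Of the 40 members, 40 had a higher CPM at 1 than at 0 UMI (median ratio 2.95), where 35% of all genes counted did. At 2 against 1 UMI 37 did (1.49), where 39.4% of all genes did. At 4 or more against 2 UMI 34 did (1.26), where 53.6% of all genes did. Jchain was at 3372 CPM at 0 UMI, 61452 at 1, 112538 at 2, 107838 at 3 and 86821 at 4 or more. Hspa5 and Hsp90b1 were highest at 4 or more, at 1269 and 3259 CPM, whereas Ddit3 was between 36.6 and 49.0 CPM at all 5 counts. Median depth also moved, from 3077 UMI per cell at 0 to 4728.5 at 4 or more, and its part in the order was not tested.

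**Figure D2:**
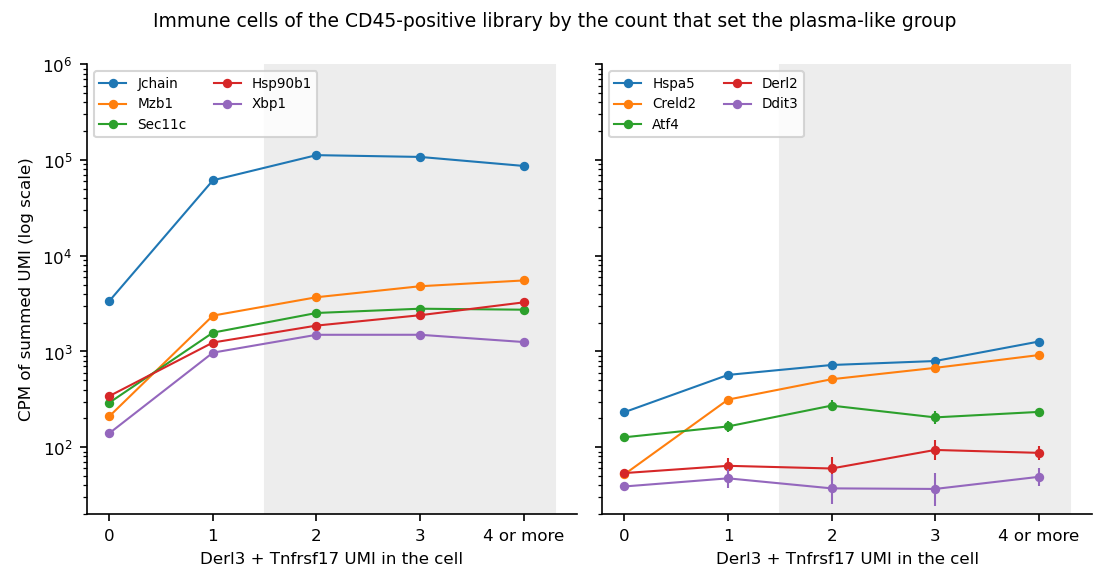
CPM (log scale) of 10 members in Immune cells of the CD45-positive library, by the UMI of Derl3 and Tnfrsf17 in the cell; lines join the same gene, vertical bars are 95% counting intervals and grey marks the plasma-like cells. Jchain is far higher at 1 UMI (61452 CPM) than at 0 (3372 CPM), Hspa5 reaches 1269 CPM at 4 or more, and Ddit3 stays between 36.6 and 49.0 CPM.

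Set against the surfactant-secreting epithelium of the same library, the 706 plasma-like cells again had more of most members. Of the 40, 34 were higher than in the 1324 AT2 cells and 0 lower, where 8.54% of 9578 genes were higher and 25.1% lower, and the median was 2.07 on the log2 scale. These plasma-like cells are the ones compared with B-like cells, so the results are not independent. Edem1 (18.0-fold), Txndc5 (17.0-fold), Creld2 (14.5-fold), Sdf2l1 (14.0-fold) and Xbp1 (11.8-fold) had the highest ratios outside Jchain, Mzb1 and the genes that chose the cells. Sec61g (1.95), Ssr1 (1.80), Derl2 (1.40), Pdia3 (1.36), Ddit3 (1.35) and Canx (1.06, 0.95 to 1.17) stayed under 2-fold. Without Jchain, the members made up 3.64% of all UMI in plasma-like cells, 0.663% in B-like and 0.634% in AT2 cells. These totals lack the immunoglobulin constant genes, as stated above. Of the 40, 37 had a higher CPM in plasma-like cells than in any non-immune class of the CD45-positive library. The exceptions were Canx, Pdia3 and Ddit3. By the same cell rule in the CD45-negative library, described below, 36 did, with Atf4 as a further exception. The share of all genes that did so was not counted, so these counts are a description.

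Against the 6099 remaining Immune cells of the CD45-positive library, 34 of the 40 were higher and 0 lower, where 4.8% of genes were higher and 18.2% lower, and the median was 2.07 on the log2 scale. That comparator held Jchain-rich cells as well: 492 of the 6099 had at least 20 Jchain UMI.

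The same rule was applied to the 108 Immune cells of the CD45-negative library, which took 22 plasma-like cells (20.4%, 13.2 to 29.2) and 0 B-like cells, a count that allows a share of up to 2.78% by the floor of 3 counts (exact upper limit 3.36%). At least 2 UMI of Cd3d, Cd3e and Cd3g were in 0 of the 22 cells (interval up to 15.4%). Against the other 86 Immune cells, 34 of 36 members counted were higher and 0 lower, where 12.6% of 2521 genes were higher and 35.6% lower. A member scarce in the comparator reached the minimum of UMI only if it was high in the plasma-like cells. The same minimum applied to all genes. Members outside the cell rule with too few UMI to be counted had ratios of 9.65 (Ero1lb), 3.93 (Atf6), 2.75 (Ddit3) and 1.12 (Hyou1). These 86 cells were rich in Chil3, an alveolar macrophage transcript, at 24151 CPM, so the comparator differs from that in the CD45-positive library. Txndc5 was at 2153 against 38.7 CPM (55.7-fold, 39.0 to 81.8), Txndc11 at 610.5 against 22.7 CPM (26.8-fold, 16.4 to 46.0), and Xbp1 at 2569 against 240 CPM (10.7-fold, 9.03 to 12.7). The ratio of Txndc11 rested on 91 UMI in plasma-like and 20 UMI in the other cells. Pdia3 (1.72, 1.40 to 2.12) and Canx (0.860, 0.585 to 1.23) were again under 2-fold, as in the comparison with AT2 cells.

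The plasma-like cells of the libraries were also set side by side. Of the 40 members outside the cell rule, 4 were higher and 0 lower in the CD45-negative cells, where 10.6% of 5160 genes were higher and 13.3% lower, so the count of higher members was near that of all genes. Tnfrsf17, the receptor BCMA for plasma cell survival factors, helped choose the cells of both groups, and its levels of 886 CPM in the CD45-negative and 291 CPM in the CD45-positive cells are a description. Hspa5 was at 2153 and 1028, Pdia4 at 1107 and 540, Pdia3 at 812 and 303, and Txndc11 at 610.5 and 282 CPM. Jchain was lower in the CD45-negative cells, at 66661 against 97861 CPM. The CD45-negative cells were deeper (median 6068.5 UMI) and the bead sort separates the groups, so fraction and library cannot be told apart.

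**Figure D3:**
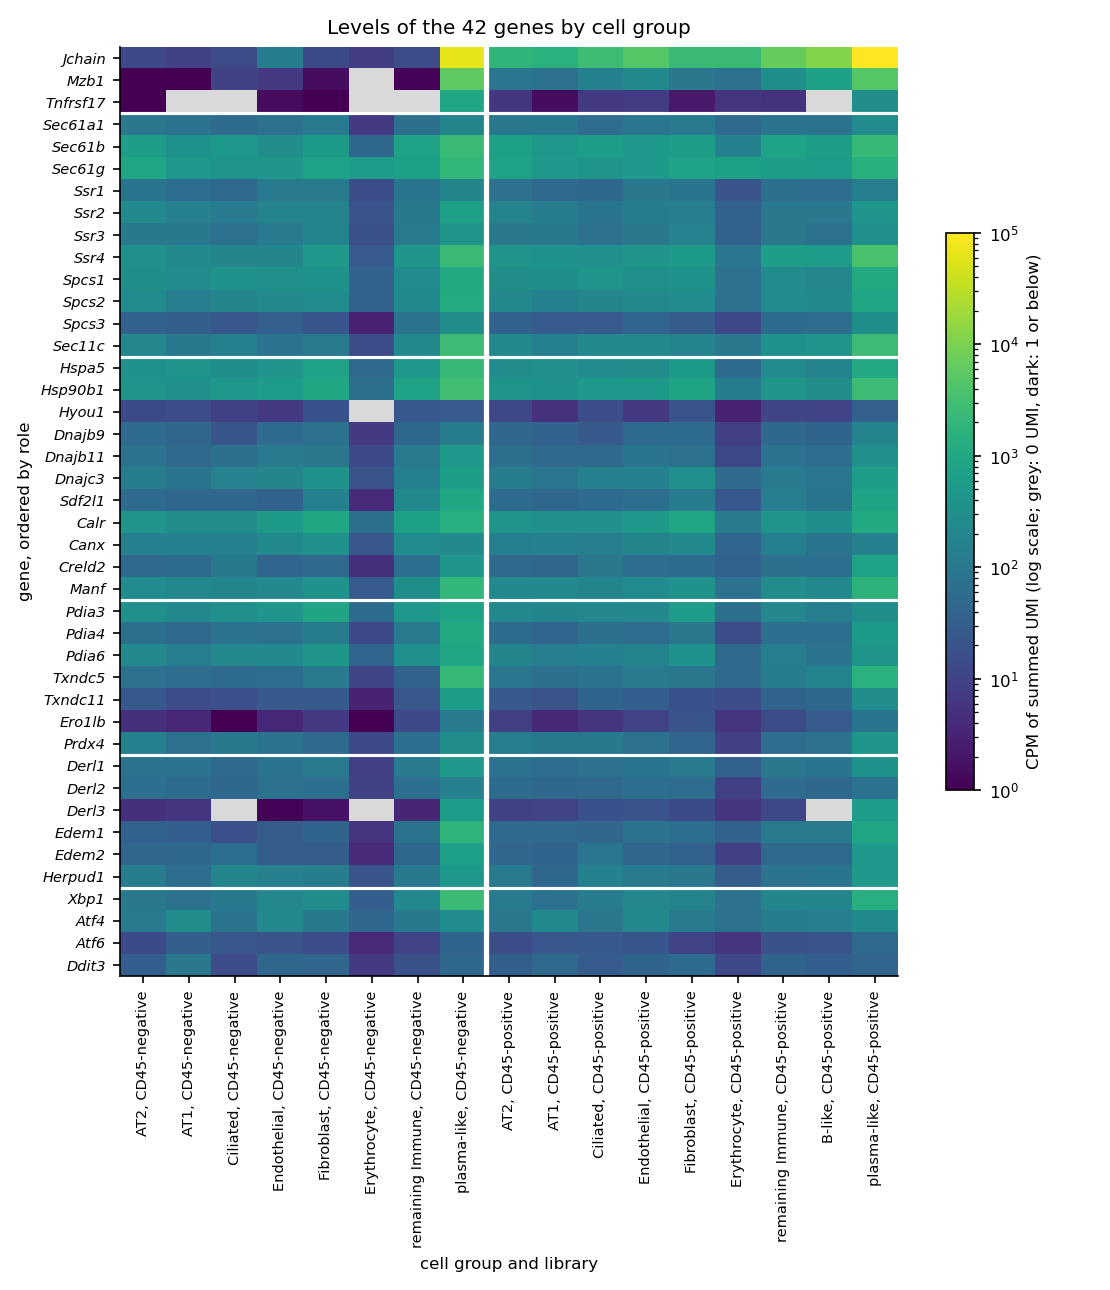
CPM of the 42 genes (rows, ordered by role and divided by white lines) in the cell groups of the CD45-negative library (left block) and of the CD45-positive library (right block), on a logarithmic colour scale; grey is 0 UMI. The plasma-like columns are the brightest in each block for most rows, the Erythrocyte columns the darkest, and the Jchain row is bright in every group of the CD45-positive library.

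Jchain was found in every class, and its spread differed between the libraries. In the CD45-positive library 90.6% of AT2, 85.7% of Endothelial, 75.8% of Erythrocyte and 88.2% of B-like cells had a Jchain UMI, while in the CD45-negative library 12.9% of AT2, 11.8% of Endothelial and 5.75% of Erythrocyte cells had one, at greater depth. After thinning every cell to 1000 UMI, 45.8% of AT2 cells of the CD45-positive and 1.37% of the CD45-negative library had one. The median share of a cell's UMI taken by Jchain was 0.0491% in AT2, 0.0496% in Endothelial, 0.0587% in B-like and 0.0577% in remaining Immune cells of the CD45-positive library, and 9.10% in plasma-like cells (highest 36.5%). The typical B-like cell thus had about the Jchain share of an epithelial or endothelial cell of its library. In the CD45-negative library the median was 0 in every class.

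In the CD45-positive library, the number of Jchain UMI per Mzb1 UMI was 19.9 in plasma-like (19.6 to 20.3), 20.4 in AT2 (18.9 to 22.1), 20.4 in Endothelial (19.5 to 21.3), 21.4 in remaining Immune (20.9 to 22.0) and 16.3 in B-like cells (15.5 to 17.1). It was 11.7 (10.9 to 12.6) in the plasma-like cells of the CD45-negative library. Much of the Jchain of a class lay in few cells: 98 of 1324 AT2 cells with at least 20 Jchain UMI held 72.0% of the AT2 Jchain, and 174 of 2172 Endothelial cells held 89.6% of theirs. In the CD45-negative library 3 of 1249 Endothelial cells held 88.2%. Whether these transcripts were in the cells, in droplets shared with a plasma cell or in free RNA was not tested.

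**Figure D4:**
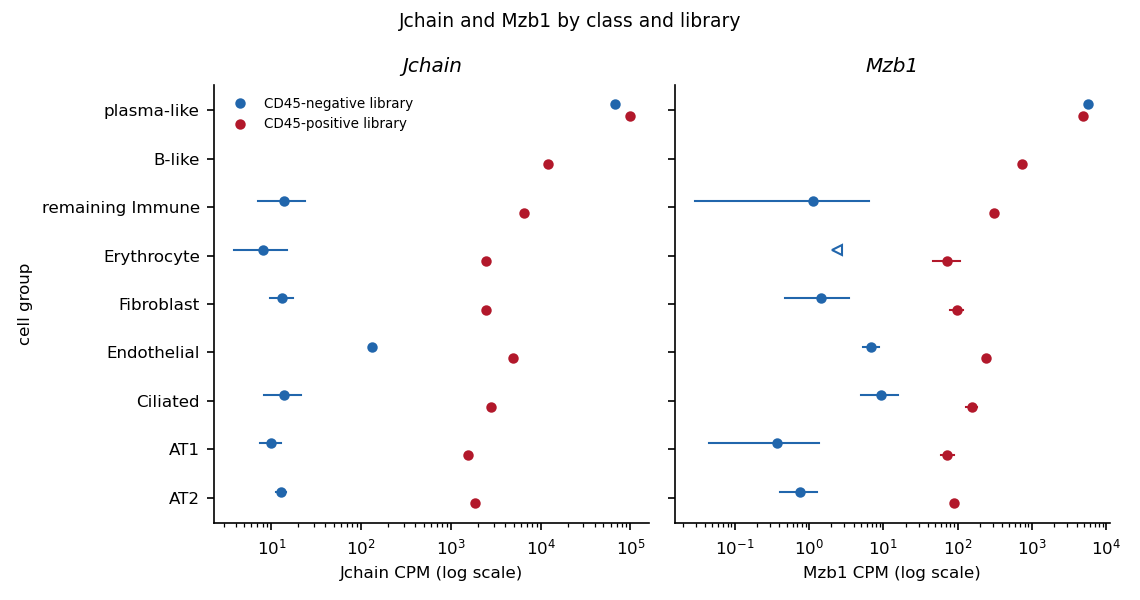
CPM of Jchain (left) and Mzb1 (right) on logarithmic axes by cell group, with 95% counting intervals as lines, for the CD45-negative (blue) and CD45-positive (red) library; an open triangle marks the level that 3 counts would give where 0 UMI were found. Outside the plasma-like cells the CD45-positive groups lie between 1536 and 12027 CPM for Jchain, and the CD45-negative groups between 8.02 and 133 CPM.

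Within the plasma-like cells of the CD45-positive library, 45 had at least 2 UMI of the cell cycle genes Mki67 and Top2a and 586 had 0. Of the 42 members 0 were higher and 1 lower in cycling cells, where 5.21% of 4609 genes were higher and 7.81% lower. The lower gene was Jchain, at 31522 against 108211 CPM (0.291, 0.285 to 0.297), or 3.15% against 10.8% of UMI. Several members lay close to the 2-fold limit on the low side: Ero1lb (0.507), Ssr4 (0.514), Atf6 (0.524), Prdx4 (0.556) and Xbp1 (0.589). Ssr2 (1.55) and Ssr1 (1.55) had the highest ratios, so subunits of the translocon-associated complex lay at both ends. Mzb1 was at 3963 against 5051 CPM, and the Jchain UMI per Mzb1 UMI were 7.95 (7.5 to 8.44) in cycling and 21.4 (21.1 to 21.8) in other cells. The cycling cells were deeper, with a median of 6181 against 4339 UMI.

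Outside the immune cells, the class deposited as Fibroblast led. In the CD45-negative library, 24 of the 42 members were highest there among the 6 non-immune classes, where 20.9% of all genes counted were. Another 6 were highest in AT2 and 4 each in AT1, Ciliated and Endothelial. The Erythrocyte class was last for 40 of the 42 over all 7 classes. The share of all genes that were last there was not counted, so this is no trait of the set. Of all genes counted, 7.89% were highest in AT2, 16.4% in AT1, 16.9% in Ciliated and 37.5% in Endothelial. For 7 of the 24, namely Ssr1, Spcs1, Spcs2, Hyou1, Txndc11, Ero1lb and Edem1, the interval overlapped that of the next class. This Fibroblast class carried mesothelial markers, with Msln at 3633 CPM against 48.9 in AT2 and Upk3b at 2190 against 9.38 CPM, so its name goes against its markers. Hspa5 was at 756 CPM in it, 410 in AT1, 401 in Endothelial, 346 in AT2 and 307 in Ciliated cells. Calr was at 950 CPM there against 531 in Endothelial, the class next to it among the non-immune ones, Pdia3 at 825 against 418, Dnajc3 at 373 against 186 and Canx at 318 against 243. The calnexin cycle members Canx, Calr and Pdia3 thus had their highest level over the 7 classes there. For Canx the interval overlapped that of the Immune class, which was at 267 CPM. Canx was at 235 CPM in the plasma-like cells of the CD45-negative and 155 CPM in those of the CD45-positive library, and Pdia3 at 812 and 303 CPM. Calr went the other way, at 1429 and 1118 CPM in these plasma-like cells, above its 950 CPM in the Fibroblast class. In the CD45-positive library the Fibroblast class led among the non-immune classes for 18 members, where it did for 22.5% of all genes. Endothelial led for 12, where it did for 33.8% of all genes. For 7 of the 18 the interval overlapped that of the next class. In all, the members without Jchain were 0.973% of UMI in the Fibroblast class, 0.667% in AT2, 0.626% in Endothelial and 0.510% in AT1.

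AT2 cells were set against Endothelial cells of the CD45-negative library as a secretory epithelium beside another class of the lung. Of the 41 members counted, 4 were higher and 4 lower in AT2, where 13.1% of 11804 genes were higher and 33.6% lower, so members were not above the share of all genes. The median of the members was -0.04 on the log2 scale, above the -0.61 of all genes. Higher in AT2 were Derl3 (4.69 against 1.12 CPM), Sec11c (205 against 81.2 CPM, 2.52-fold), Sec61b (647 against 295 CPM, 2.19-fold) and Sec61g (865 against 425 CPM, 2.04-fold). Sec61a1, the pore-forming subunit of the same channel, was at 95.5 against 78.1 CPM (1.22-fold, 1.12 to 1.33). Lower in AT2 were Xbp1 (100.5 against 208 CPM), Atf4 (108 against 230.1 CPM), Jchain (12.7 against 133 CPM) and Mzb1 (0.754 against 6.90 CPM), where the 3 Jchain-rich cells named above held most of the Endothelial Jchain.

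In the CD45-positive library, an alternative added after the data were seen, 0 members were higher and 4 lower in AT2 than in Endothelial cells, where 9.58% of genes were higher and 23% lower. Sec11c was at 229 against 227 CPM there, and Derl3 turned direction, at 9.27 against 20.3 CPM (0.457, 0.342 to 0.607). Jchain was at 1848 CPM in AT2 and 4905 CPM in Endothelial cells of that library, and the part of plasma cell transcripts in these values was not tested. Atf4 was lower in AT2 in both libraries (0.469 and 0.431).

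Next, AT2 cells of the CD45-negative library were set against the 285 cells of the class deposited as AT1. That class goes against its name: Ager, the main AT1 marker, was at 302 CPM in it and 1614 in AT2, Hopx at 7.09 and 30.0 and Rtkn2 at 0.187 and 10.8, while Krt19 was at 934 and 301 CPM. Of the 40 members counted, 1 was higher in AT2 and 3 were lower, where 11.9% of 10974 genes were higher and 11% lower, so neither share of members was above that of all genes. The lower genes were 3 of the 4 signalling factors: Atf4 was at 108 against 287 CPM (0.376, 0.352 to 0.402), Ddit3 at 31.6 against 102 CPM (0.309, 0.274 to 0.348) and Atf6 at 13.4 against 32.1 CPM (0.418, 0.343 to 0.511). Xbp1 was at 100.5 against 72.8 CPM (1.38, 1.24 to 1.54). Herpud1 was the gene higher in AT2, at 129 against 63.2 CPM (2.04, 1.82 to 2.29), with Prdx4, Sec11c and Spcs2 just under the limit at 2.0, 1.96 and 1.93. The median of the 40 was 0.32 on the log2 scale. With UMI outside mitochondrial and ribosomal protein genes as denominator, 0 members were higher, and 9.17% of all genes were higher and 17.9% lower.

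Of 18 further stress transducers and targets, 0 were higher and 8 lower in AT2 than in the class deposited as AT1. These included the glutathione-degrading enzyme gene Chac1 (3.45 against 27.2 CPM), the factor genes Atf3 (62.6 against 312 CPM) and Atf5 (60.1 against 175 CPM), the pseudokinase gene Trib3 (12.7 against 54.1 CPM) and the asparagine synthetase gene Asns (25.1 against 99.2 CPM), each of which is known as a target of ATF4. They were not counted as a list of their own, and the other 10 genes of the list were not lower. The sensor genes Ern1 and Eif2ak3, which encode IRE1 and PERK, had ratios of 1.10 (0.821 to 1.5) and 0.845 (0.617 to 1.17). Hspa5, by contrast, was at 346 against 410 CPM (0.844, 0.804 to 0.887), and no chaperone, translocon or disulfide member passed 2-fold. Of 10 genes known to respond to dissociation, 6 were lower in AT2 as well, among them Junb (191 against 608 CPM) and Atf3, and the median depth was 8143 UMI in AT2 and 14541 in the other class. The part of these differences in the result was not tested.

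In the CD45-positive library, 3 of 41 members were higher and 1 lower in AT2 than in the class deposited as AT1, where 12.1% of genes were higher and 8.13% lower. Atf4 was the lower gene (97.0 against 234 CPM, 0.415, 0.363 to 0.475). Ddit3 (0.597, 0.457 to 0.787) and Atf6 (0.700, 0.468 to 1.08) had ratios on the same side without reaching 2-fold. Herpud1 (2.33), Hyou1 (2.37) and Ero1lb (2.44, 0.996 to 7.77) were the higher genes. Of the further stress genes 6 of 17 counted were lower and 2 higher, the former including Atf3 (0.230), Trib3 (0.182), Asns (0.258), Atf5 (0.394) and Ddit4 (0.276), while 1 of the 10 dissociation genes was lower, Atf3 itself.

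**Figure D5:**
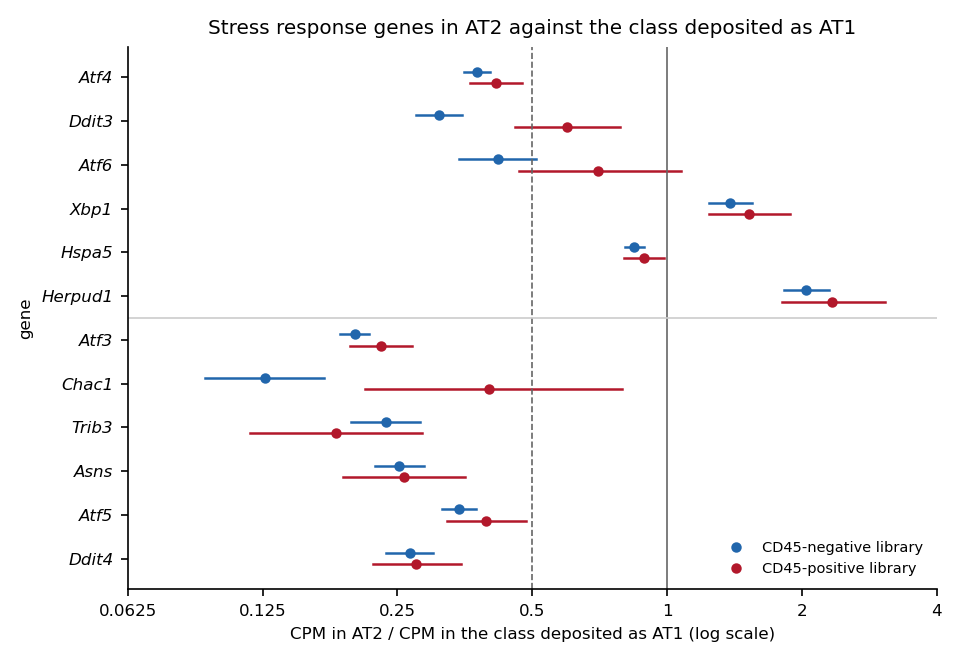
Ratio of CPM in AT2 cells to CPM in the class deposited as AT1 for 6 members (top) and 6 further stress genes (bottom) on a logarithmic axis, in the CD45-negative (blue) and CD45-positive (red) library, with 95% counting intervals; the dashed line marks 0.5. The 6 further genes were taken from those of their list that were lower in the CD45-negative library, so their side there is set by that choice. Genes of that list that were not lower are not shown. Atf4 and the 6 further genes lie to the left of the dashed line in both libraries (Chac1 had too few UMI to be counted in the CD45-positive one), Ddit3 and Atf6 only in the CD45-negative library, and Herpud1 lies at 2.04 and 2.33.

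Between the whole libraries, 0 of the 42 members were higher and 12 were lower in the CD45-negative library, where 19.1% of 14209 genes were higher and 10.3% lower. With UMI outside mitochondrial and ribosomal protein genes as denominator, these shares were 13% and 12.8%, and again 0 members were higher. In summed counts, fewer cells of a type and less RNA per cell cannot be told apart. Jchain was at 284 against 11917 CPM (0.0239) and Mzb1 at 23.3 against 592 CPM (0.0394). The other 10 were Derl3, Tnfrsf17, Edem1, Ero1lb, Sec11c, Txndc5, Ssr4, Sdf2l1, Creld2 and Txndc11. All of them were also higher in plasma-like than in B-like cells or chose the plasma-like cells. That holds for most of the set, as 36 of the 40 members outside the cell rule were higher there. Pdia3 had the highest ratio, at 378 against 222 CPM (1.70, 1.66 to 1.75). Within AT2 cells alone, CD45-negative against CD45-positive, 0 of 41 members counted were higher and 2 lower, where 1.9% of genes were higher and 5.05% lower. The 2 were Jchain (12.7 against 1848 CPM) and Mzb1 (0.754 against 90.4 CPM), and the median of the members was 0.02 on the log2 scale. Tnfrsf17 had too few UMI to be counted, 2 against 47, at a ratio of 0.017 (0.002 to 0.065). Derl3 (0.506) and Ero1lb (0.557) lay just above the limit for lower genes.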

How the data were processed

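The authors deposited UMI counts without normalization, with 1 row per gene and 1 column per cell, beside an annotation of each cell's library, class and UMI total. That total matched the summed counts in all 15389 cells. Reads went through Cell Ranger 1.1.0 against mm10, per the series design text. For the filters on cells and genes and the making of the classes, the method was not given in the sources used here. Doublets were not called and all cells were kept.

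UMI were summed per group and divided by the group's total to give CPM. Poisson, conditional binomial and Clopper-Pearson intervals were exact (95%) and cover counting error only. A count of 0 was read against a floor of 3 counts. The computation was tested on simulated data. Groups were the libraries, the deposited classes and the marker counts stated in the report, and each comparison was a ratio with no test. Python 3.11.15 ran the scripts, with scipy 1.17.1 for the intervals, numpy 2.4.6 and pandas 2.3.3 for the sums and matplotlib 3.10.9 for the figures. The GENCODE annotation of GRCm38 gave gene positions, and RefSeq (GRCm38.p6) the promoters.

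The members, lists and comparisons were chosen with earlier results of these data known. The rule for named genes took every member and, from each further list, up to 4 genes with the highest and up to 2 with the lowest ratio among those with at least 50 UMI in both groups together. Asns, Atf5 and Trib3 in AT2 against the class deposited as AT1, and Atf3, Asns, Atf5, Trib3 and Ddit4 in that comparison within the CD45-positive library, were chosen after their values were seen. None of 12 listed immunoglobulin constant genes was in the table, so a planned comparison by heavy chain class was not made, and UMI outside Jchain served where UMI outside immunoglobulin genes and Jchain was planned. Alternatives were other denominators, count minimums, per-cell means, thinning to 1000 UMI, limits on depth, other limits for the cell groups, and removal of cells with markers of other types.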

Additional observations from a re-analysis of the deposited data

How the results depend on the processing

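No paired analysis was possible because each fraction was 1 library. The count of members higher in plasma-like than in B-like cells ranged from 26 (of 26 counted, after cells with other markers were left out) to 36 over 14 alternatives. The count lower was 0 in each. No ratio changed direction among the members that were at 2-fold or more in the main comparison. Canx, Derl2, Atf4 and Ddit3 were under 2-fold there and were not part of that check. Members under the minimum of UMI were not counted in the alternative with 26, so it does not speak for them. Against AT2 cells the count of higher members ranged from 31 to 38 over 13 alternatives. In AT2 against Endothelial cells, the CD45-positive library gave 0 higher members in place of 4, and the ratio of Derl3 was 0.457 in place of 4.20. In AT2 against the class deposited as AT1, the count of higher members was 0 with UMI outside mitochondrial and ribosomal protein genes as denominator, 2 with a minimum of 10 UMI, 4 after thinning to 1000 UMI per cell and 3 in the CD45-positive library, in place of 1, and the count lower was 1 in the CD45-positive library, in place of 3. Between the libraries the count lower ranged from 11 to 15 over 7 alternatives. The denominator without mitochondrial and ribosomal protein genes moved the log2 median of all genes from -0.15 to -0.38 in plasma-like against B-like cells, from -0.21 to -0.048 against AT2 cells, from -0.16 to -0.39 in AT2 against the class deposited as AT1 and from 0.26 to 0.00076 between the libraries. The causes of these moves were not tested. With 1 library per fraction, no value here speaks of variation between animals, and members with few UMI, such as Hyou1, Ero1lb and Atf6, have wide intervals.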
